A study of Mus musculus with 17 samples.

Results

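The oligodendrocyte lineage was followed through 10 genes that mark its stages: Pdgfra, Cspg4, Vcan, Tnr, Gpr17, Bcas1, Enpp6, Itpr2, Sox10 and Olig2. They were taken by symbol as 10 of the 26131 genes of a single-nucleus RNA count matrix, by a rule that uses their names. Each was measured in nuclei sorted from frozen mouse posterior brain, per animal, in 5 classes of nuclei defined by the deposited cluster numbers and cell type labels.

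Oligodendrocytes arise from dividing precursor cells that carry the growth factor receptor PDGFRα and the proteoglycan NG2. Precursors that commit to differentiation pass through a short premyelinating stage marked by genes such as Bcas1 and Enpp6, and then switch on the myelin proteins. The transcription factors Olig2 and Sox10 are present throughout the lineage.

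All 17 mice were females of 2.3 months, homozygous for a human TfR knock-in (hTfR KI HOM), so the controls carry the knock-in as well. They fell into 4 groups dosed intravenously 4 times over 24 days: saline (4 mice), Malat1 ASO at 2 mg/kg (4 mice), anti-TfR:Malat1 at 50 mg/kg (6 mice, titled TfR-Malat1) and OTV:Malat1 at 50 mg/kg (3 mice). An ASO is an antisense oligonucleotide, here against the nuclear long noncoding RNA Malat1. In the conjugates it is carried by an antibody against the transferrin receptor or by OTV, an oligonucleotide transport vehicle that binds that receptor. The study compared how far each form lowers Malat1, and the stage genes were not its target.

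Upstream DNA of the genes that stand at the 2 ends of the order described below is shown, as background to their names, from the RefSeq promoter table for GRCm38.p6. Each run is the 250 bases before the transcription start, 5′ to 3′ on the gene's own strand. Capitals mark matches to the motif searched. Windows of 7 of the 10 genes were used, and Bcas1, Gpr17 and Sox10 were not among them.
Pdgfra, chr5:75152001-75152250, + strand: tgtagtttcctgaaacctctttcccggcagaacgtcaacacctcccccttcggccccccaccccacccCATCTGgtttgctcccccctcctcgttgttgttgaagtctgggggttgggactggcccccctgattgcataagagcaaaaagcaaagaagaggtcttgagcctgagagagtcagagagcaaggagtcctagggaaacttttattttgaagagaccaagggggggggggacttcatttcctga
Enpp6, chr8:46986637-46986886, + strand: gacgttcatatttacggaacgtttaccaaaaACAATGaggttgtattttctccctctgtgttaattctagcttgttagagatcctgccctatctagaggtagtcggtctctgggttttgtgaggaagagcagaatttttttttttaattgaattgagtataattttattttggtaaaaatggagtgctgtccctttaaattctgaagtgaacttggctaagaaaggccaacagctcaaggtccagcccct
The capitals in Pdgfra, CATCTG, are the reverse complement of the E-box CAGATG and begin 182 bases before the start. Those in Enpp6 are the SOX-type letters ACAATG, 219 bases before the start. Both strands were searched for the E-box CAGATG, the SOX letters ACAAAG and their variant ACAATG, and in these 7 windows no match overlapped another. Of 32851 promoter windows, 14.4% held the E-box, 16.5% the SOX letters and 10.7% their variant. Tnr held CTTTGT 220 bases and Olig2 CATTGT 68 bases before the start, and the windows of Vcan, Cspg4 and Itpr2 held none of these letters. The GC content of the 7 windows ran from 38.4% in Enpp6 to 74.4% in Itpr2, against a median of 52.4% over all windows.

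The matrix held 284074 nuclei, 13841 to 18365 per animal, with a median of 2894 to 4052 UMIs (unique molecular identifiers, that is, counted RNA molecules) per nucleus. Of these nuclei, 20326 (7.16%) shared a cell barcode with a nucleus of another library, 5965 of them among the 82634 nuclei of the lineage. The libraries came in 4 deposited batches, and the OTV:Malat1 animals were in batches 2, 3 and 4 and not in batch 1. Each of batches 2, 3 and 4 held 1 OTV:Malat1 and 1 saline animal. Counts over batches for these groups thus set 1 animal against 1 and repeat the animals of the tests. Levels are given as CPM, the UMIs of a gene per 1000000 UMIs of the class in an animal, as mean ± SD over 17 animals unless stated. A CPM is not corrected for gene length, so levels are compared only for one gene between classes.

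Cluster 13 held 7782 nuclei, 377 to 609 per animal. The deposited annotation labelled 7336 of them Neurons and 430 Oligodendrocytes, with no label for precursors in use. Its RNA went against the first label. A list of 12 precursor genes other than the members summed to 24537 ± 995 CPM there, against 2071 ± 108 in neurons of the other clusters, whereas 6 neuron markers summed to 1354 against 12960 CPM. Markers of astrocytes (5), microglia (5) and vascular cells (6) summed to 547, 65.4 and 5.19 CPM there. Pdgfra, Vcan, Emid1 and Cspg4 led the cluster by ratio to all nuclei, and it is called oligodendrocyte precursor-like below. The 1130 nuclei of cluster 17 labelled Oligodendrocytes, 43 to 100 per animal, were led by 9630013A20Rik, Tns3, Cnksr3, Kif19a and Itpr2. They are called committed oligodendrocyte-like, a name that here covers newly formed oligodendrocytes as well, since the values do not tell these apart. Their 12 listed committed genes summed to 11450 CPM, against 1012 in cluster 13 and 350 to 586 in the remaining classes. That list includes the leading genes 9630013A20Rik (3771 CPM), Cnksr3 (1162) and Kif19a (281), and was chosen with earlier results of these data known. Its sum is therefore no separate support for the name. Oligodendrocytes of clusters 15 (6603 nuclei), 0 (37325) and 2 (29228) had summed levels of 15 myelin-stage genes between 14558 and 17226 CPM, against 679 in cluster 13 and 9241 in cluster 17, and are called mature. A further 474 oligodendrocytes lay in cluster 18, of which 75.7% were doublet calls. They held 150 CPM of Enpp6, 559 of Bcas1 and 228 of Itpr2, with 4 UMIs of Pdgfra in all, and were not tested. The clusters were made from these same nuclei, so the differences between classes are a description and carry no test. The leading genes Pdgfra, Vcan, Cspg4 and Itpr2 are stage genes themselves, so their levels below are not independent of these names.

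Pdgfra, which encodes the receptor for the main mitogen of the precursors, was highest in cluster 13, at 609 ± 78.6 CPM, with a lowest animal of 465, a median of 597 and a highest of 737. It stood at 62.8 ± 36.5 CPM in the cluster 17 oligodendrocytes and between 2.33 and 3.19 CPM in the 3 mature classes. Every one of the 17 animals had more in cluster 13 than in cluster 17. The level in cluster 17 came almost wholly from doublet-called nuclei: without them it was 1.90 ± 4.50 CPM, with a mean no higher than those of the mature classes, against 613 in cluster 13. The 3 mature classes did not differ beyond their spread. Outside the lineage, vascular cells held 200 ± 47.1 CPM, astrocytes 16.3, microglia 4.30 and other neurons 0.98.

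Cspg4, the gene of the NG2 proteoglycan, was likewise highest in cluster 13, with 328 ± 41.6 CPM there, 51.6 ± 16.6 in cluster 17 and 18.8 to 25.8 in the mature classes. Without doublet-called nuclei the level in cluster 17 was 21.7 ± 16.4 CPM, inside the range of the mature classes. Its level in mature oligodendrocytes lay above that of microglia, at 4.07 ± 3.09 CPM, and other neurons, at 1.22 ± 0.23 CPM. Vascular cells held 79.1 ± 26.5 CPM.

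Vcan, which encodes the matrix proteoglycan versican, kept more of its level into cluster 17. It measured 1266 ± 92.1 CPM in cluster 13 and 572 ± 116 in cluster 17, a ratio of 2.21 with no animal in the other order, and then 3.92 to 5.31 CPM in the mature classes. The mature levels were near background: a Vcan UMI was found in 0.167% of cluster 15 nuclei thinned to 500 UMIs, against 0.237% of microglia.

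Tnr, the gene of the matrix glycoprotein tenascin-R, was higher in the oligodendrocytes of cluster 17 than in the precursor-like cluster. Its level was 4205 ± 266 CPM in cluster 13, with a lowest animal of 3596, a median of 4169 and a highest of 4624. Cluster 17 held 6955 ± 853 CPM, from 5887 through a median of 6660 to 8458, above cluster 13 in 17 of 17 animals. Over all labels of cluster 17, which include 1785 nuclei labelled Neurons, the order turned, with 3225 CPM there. Mature classes held 13.8 to 19.3 CPM, which is near background by the thinned shares below. Other neurons held 453 ± 33.8 CPM.

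**Figure D1:**
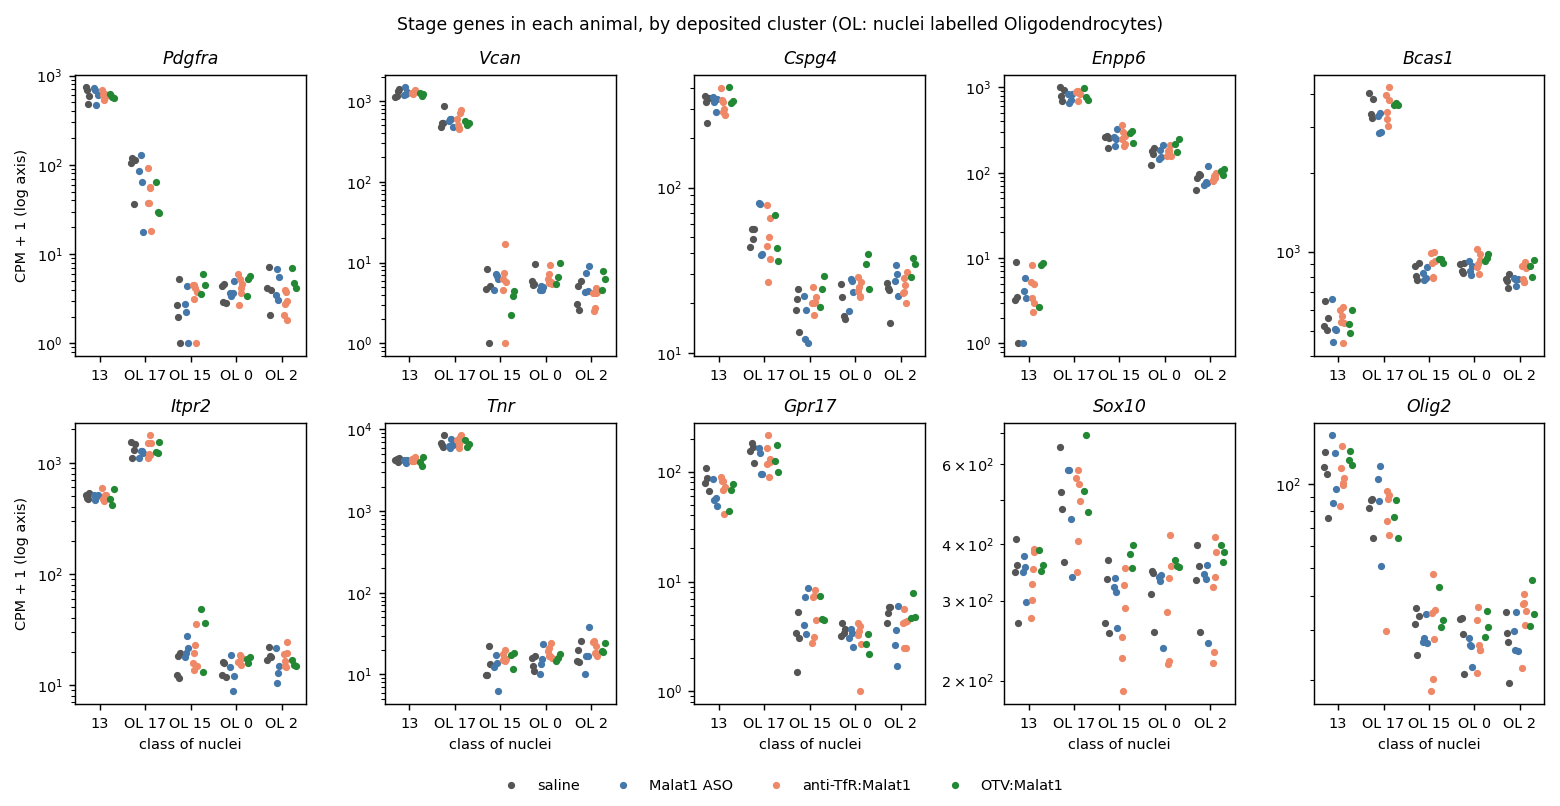
Each panel plots 1 gene, with CPM + 1 on a log axis against the class of nuclei (13, and clusters 17, 15, 0 and 2 labelled Oligodendrocytes, OL), and each point is 1 animal coloured by treatment. Pdgfra, Cspg4 and Vcan are highest in 13 and lower in OL 17, with low levels in the other 3 classes, Enpp6 and Bcas1 peak in OL 17, and the 4 treatments overlap in cluster 13 and OL 17.

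Enpp6, a choline-specific phosphodiesterase gene used as a marker of newly forming oligodendrocytes, set the opposite end. Cluster 13 held 61 UMIs of it in all animals together, 3.58 ± 2.60 CPM, which is below the 9.83 ± 5.72 CPM of microglia. In cluster 17 it was 823 ± 107 CPM, with a lowest animal of 649, a median of 833 and a highest of 1001. Over all labels of cluster 17 the level was 247 CPM, below the 258 CPM of all nuclei of cluster 15. Among oligodendrocytes it stepped down through the mature classes, from 261 ± 44.8 in cluster 15 to 179 ± 29.9 in cluster 0 and 89.1 ± 14.5 CPM in cluster 2. The step from 15 to 0 was seen in 16 of 17 animals and that from 0 to 2 in 17 of 17. The median UMIs per nucleus of these classes fell in the same order, 2477, 1457 and 945, and the part of depth in the order of CPM was not tested. With every nucleus thinned to 500 UMIs, the share with an Enpp6 UMI was 12.1%, 7.68% and 4.12% in the same order.

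Bcas1, a myelin-associated gene whose protein marks premyelinating and early myelinating cells, was present in every class and highest in the oligodendrocytes of cluster 17. The levels were 544 ± 62.1 CPM in cluster 13, 3497 ± 404 in cluster 17, and 871 ± 71.9, 900 ± 61.3 and 810 ± 60.1 in clusters 15, 0 and 2. Cluster 17 exceeded cluster 13 by 6.43 times and cluster 15 by 4.01 times, in 17 of 17 animals each. Over all labels of cluster 17 it was 1205 CPM.

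Itpr2, the gene of an inositol trisphosphate receptor of the endoplasmic reticulum, was highest of the 5 classes in the oligodendrocytes of cluster 17. It measured 497 ± 42.8 CPM in cluster 13, 1328 ± 192 in cluster 17 and 14.5 to 20.6 in the mature classes. Over all labels of cluster 17 it was 508 ± 94.0 CPM, within the spread of cluster 13. It was also present outside the lineage, at 499 ± 52.1 CPM in microglia, 307 in astrocytes and 299 in vascular cells, against 10.6 in other neurons.

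Gpr17, a G protein-coupled receptor gene of late precursors and committed cells, measured 70.2 ± 18 CPM in cluster 13 and 138 ± 35.8 in cluster 17. The mature classes held 2.18 to 4.07 CPM, close to the 2.65 ± 2.38 CPM of microglia. Cluster 17 oligodendrocytes were above cluster 13 in 17 of 17 animals, by 1.96 times, but over all labels of cluster 17 the level was 56.8 CPM, below cluster 13.

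Sox10 and Olig2 encode transcription factors present throughout the lineage. Sox10 was 345 ± 40.7 CPM in cluster 13, 504 ± 102 in cluster 17 oligodendrocytes (248 over all labels of that cluster) and 306 to 333 in the mature classes. Those 3 means lay within 1 SD of each other, though cluster 0 was below cluster 2 in 15 of 17 animals. Olig2 was 111 ± 20.3 CPM in cluster 13 and 78.6 ± 20.4 in cluster 17, higher in cluster 13 in 16 of 17 animals, and 27.4 to 30.9 in the mature classes. Among 9 further regulators, Sox6 stayed high in cluster 17, with 2142 CPM in cluster 13, 1774 in cluster 17 and at most 7.26 in the mature classes. Myrf, the regulator of myelin genes, was 16.2 CPM in cluster 13 and 180 to 212 in the 4 other classes.

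Cluster 17 carried many doublet calls, so its levels were read with and without them. The deposited call marked 499 of its 1130 oligodendrocytes (44.2%) as doublets, against 1.22% of cluster 13, 29.7% of cluster 15, 1.39% of cluster 0 and 0.174% of cluster 2. The remaining 631 nuclei, 22 to 67 per animal, held 5 UMIs of Pdgfra in all. The doublet-called nuclei held the other 256 Pdgfra UMIs, 114 ± 67.7 CPM. Over all labels of cluster 17, Pdgfra was 153, Cspg4 89.8, Vcan 466 and Olig2 49.7 CPM. Cspg4 was lower in the singlet-called nuclei on the mean, 21.7 against 77.1 CPM, with overlapping ranges. Vcan was 529 ± 194 CPM in singlet-called and 605 ± 125 in doublet-called nuclei. On the means, with overlapping ranges, the other genes were higher in the singlet-called nuclei. Enpp6 was 965 ± 200 against 698 ± 110 CPM, Bcas1 3935 against 3120, Itpr2 1599 against 1105 and Tnr 7464 against 6465. Gpr17 was 155 against 123, Sox10 612 against 414 and Olig2 90.3 against 70.1 CPM. Beside these levels, the 6 neuron markers summed to 491 CPM in singlet-called and 1657 in doublet-called nuclei. The 5 astrocyte markers summed to 30.2 and 175, and the 5 microglia markers to 52.4 and 54.4. The listed precursor genes summed to 5490 and 8099 CPM in the same order. The committed genes summed to 15355 and 8205, and the myelin-stage genes to 10925 and 7948. The part of these markers in the split was not tested. Over the 5 classes, 6 of 50 levels moved by more than 1 SD when doublet-called nuclei were left out, all in cluster 17 (Pdgfra, Cspg4, Enpp6, Bcas1, Itpr2 and Sox10).

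**Figure D2:**
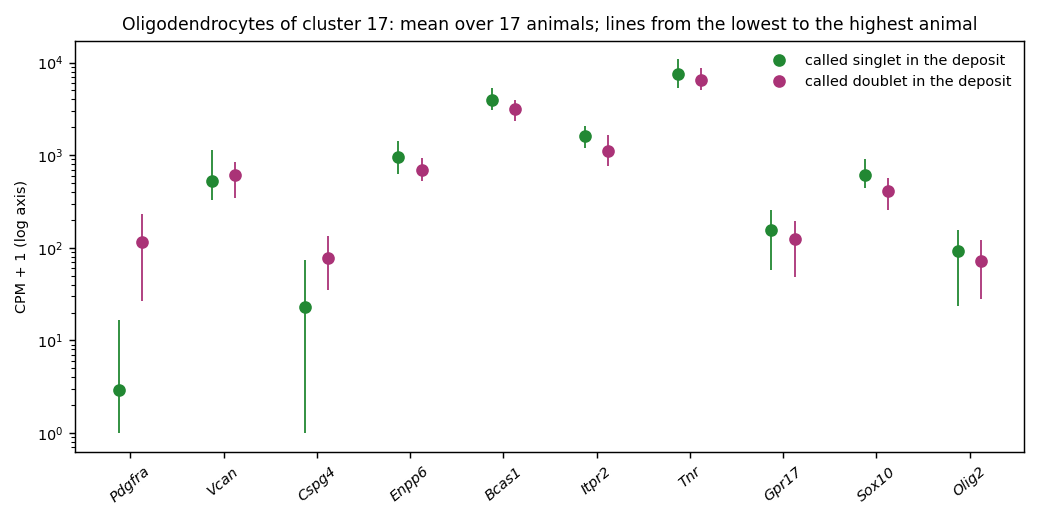
Mean CPM + 1 (log axis) of each stage gene in cluster 17 oligodendrocytes called singlet or doublet in the deposit, as points over 17 animals with lines from the lowest to the highest animal. Pdgfra stands at 1.90 CPM in singlet-called against 114 in doublet-called nuclei, without overlap between animals, while the ranges of the other 9 genes overlap.

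The label inside cluster 13 divided its nuclei as well. The 430 nuclei labelled Oligodendrocytes, 14 to 36 per animal, had 600 CPM of Pdgfra against 610 in the 7336 labelled Neurons, so both carried the precursor gene. Cspg4 was 270 against 332 CPM, lower in the first in 15 of 17 animals, and Vcan 1483 against 1251, higher in 15 of 17. Gpr17 was 221 ± 76.0 against 60.1 ± 14.6 CPM, Bcas1 1132 ± 339 against 508 ± 53.6, Itpr2 777 against 480 and Tnr 5503 against 4127, each higher in the first in 17 of 17 animals. Of the listed committed genes, Neu4, a sialidase, was 593 against 181 CPM and Bmp4 43.1 against 4.40, and the others are not given here. Neu4 also ranked 6 among the leading genes of cluster 13 by ratio to all nuclei, at 205 CPM over all its labels. Enpp6 had 25 UMIs in the first and 36 in the second, 24.3 ± 26.7 and 2.29 ± 2.31 CPM. The label was itself set from expression, so this too is a description.

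Single nuclei were compared after thinning each to 500 UMIs. A Pdgfra UMI was then found in 26.2% of cluster 13 nuclei (67.8% before thinning, at a median of 2049 UMIs) and in 2.30% of cluster 17 oligodendrocytes. Among the 631 singlet-called of the latter it was 0.158%, too few nuclei for a precise share of that size. In microglia, which should lack the gene, it was 0.142%, at a median of 1004 UMIs. Shares in the mature classes were 0.163% to 0.182%, near that background. Enpp6 was found in 0.244% of cluster 13 nuclei, below the 0.367% of microglia, and in 32.2% of cluster 17 oligodendrocytes. Tnr was found in 83.8% of cluster 13 and 83.5% of cluster 17 nuclei, and in 0.747% to 0.944% of the mature classes against 0.805% in microglia. Thinned to 1000 UMIs, Tnr was found in 96.9% of cluster 13 and 90.2% of cluster 17 nuclei. At 500 UMIs again, the shares of 2 other genes follow. Bcas1 was found in 22.3% of cluster 13, 72.3% of cluster 17 and 32.5% to 35.7% of mature nuclei. For Itpr2 microglia give no background, since they held it in 21.4% of nuclei, as many as the 21.7% of cluster 13.

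**Figure D3:**
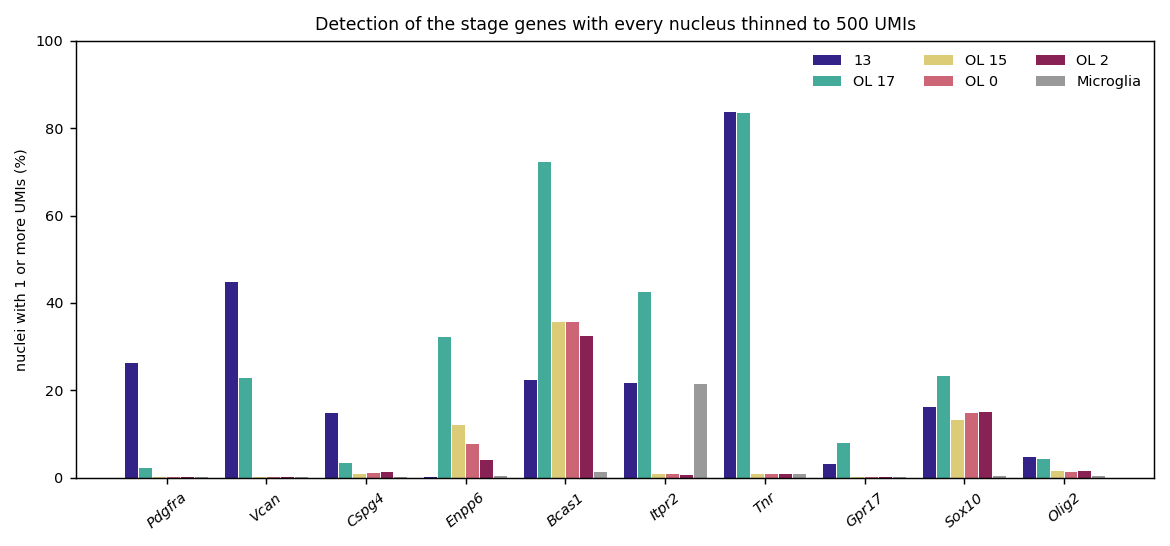
Bars give the share of nuclei (%) with 1 or more UMIs of each stage gene after thinning every nucleus to 500 UMIs, in cluster 13, the 4 oligodendrocyte classes (OL) and microglia. Pdgfra, Vcan and Cspg4 are most often found in cluster 13, Enpp6 and Bcas1 in OL 17, and Tnr about equally in both at this depth.

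Within cluster 13, thinned to 1000 UMIs (7543 nuclei, 239 shallower ones left out), nuclei with and without a Pdgfra UMI were alike in Vcan (67.2% and 66.1%), Tnr (96.5% and 97.2%) and Gpr17 (6.24% and 6.54%). An Enpp6 UMI was found in 29 nuclei, 0.384% against 0.844% of microglia at this depth. Among the nuclei labelled Oligodendrocytes alone the share was 2.82%, above that of microglia. The 483 nuclei with a Gpr17 UMI held Bcas1 in 44.9% against 37.2%, and Pdgfra in 43.7% against 44.9%. In cluster 17 oligodendrocytes at the same depth (1127 nuclei, 3 left out), the 170 with a Gpr17 UMI held Vcan in 64.1% against 34.9% of the others, and Enpp6 in 46.5% against 47.5%. The 718 with an Itpr2 UMI held Enpp6 in 55.3% against 33.5%. Doublet-called nuclei are among them, and their part in these shares was not tested.

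For each gene, those with the most similar level across the 20 deposited clusters were sought among 13744 genes, by Pearson's r of log2(CPM + 1). All points share the same 17 libraries, and the clusters were made from these genes, so r is a description. Closest to Pdgfra were Rlbp1 (r = 0.993) and Rgcc (0.977), to Vcan Traf4 (0.980) and Has2os (0.971), and to Cspg4 Caskin2 and Olig2 (both 0.973). Tnr lay closest to Slc1a1 (0.978) and 4430402I18Rik (0.975), and Gpr17 to Neu4 (0.976) and Snx22 (0.952). The later genes had other partners: Enpp6 had Mbp (0.936), a major myelin protein gene, and Sgk2 (0.933), whereas Itpr2 had Fam114a1 (0.969) and Loxl3 (0.950). Sox10 was closest to Gjc3 (0.991), an oligodendrocyte gap junction gene, and Bcas1 (0.989), and Olig2 to 2610008E11Rik (0.981) and Chst3 (0.975). Bcas1 was closest to its antisense gene Bcas1os2 (0.995) and Gjc3 (0.994). The sources used here do not state how strand was handled in counting, and sharing of reads between Bcas1 and Bcas1os2 was not checked.

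Treatment was tested on UMI sums per animal with edgeR's quasi-likelihood test and Benjamini-Hochberg adjustment over all genes, in 4 contrasts: each of the 3 drug groups against saline, and OTV:Malat1 with anti-TfR:Malat1 as its reference. Contrasts against saline share the same 4 control animals, and p-values measure the spread between animals. None of the stage genes passed an adjusted p of 0.05 in any class or contrast. Of 172 tests in the 5 classes, 8 (4.65%) had an unadjusted p under 0.05, and the smallest adjusted p was 0.859. Called at that threshold were 0% of 10775 genes in cluster 13 and 0% of 5410 in cluster 17 in all 4 contrasts. At an unadjusted p under 0.05 stood 272 to 426 genes in cluster 13 and 150 to 211 in cluster 17, and DESeq2 also called 0. In the mature classes 0.0109% of 9184 genes (cluster 15), 0.00777% of 12874 (cluster 0) and 0.0087% of 11497 (cluster 2) were called in both OTV:Malat1 contrasts, in each case 1 gene, Malat1. In the other contrasts of these classes 0% were called, 161 to 306 genes had an unadjusted p under 0.05, and DESeq2 called 0. The count at an unadjusted p under 0.05 is not given here for their OTV:Malat1 contrasts. The 4.65% of the stage gene tests thus has no full background over all genes. Malat1 itself was lower with anti-TfR:Malat1 than with saline in 4 of 4 batches in each mature class, with log2 changes of −0.50, −0.64 and −0.71 in clusters 15, 0 and 2. It did not pass in the main fit. It passed without a filter on low counts in clusters 15 and 2 (edgeR adjusted p = 4.37e-06 and 7.57e-07) and, in cluster 2, with batch as a block (adjusted p = 0.0413). In no other of the 27 alternatives per class, 1 of which left Malat1 out, did it pass, and in none for cluster 0. Of the fixed lists of precursor, committed, myelin-stage and regulator genes, 0 were called up and 0 down in any class. The members' median log2 change for OTV:Malat1 against saline was −0.09 in cluster 13, −0.06 in cluster 17 and 0.02 to 0.09 in the mature classes, beside 0.00 to 0.01 over all genes.

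In cluster 13, 9 of the 10 genes entered the test, Enpp6 having too few UMIs. Their log2 changes ran from −0.52 to 0.15 with standard errors of 0.08 to 0.22. Gpr17 lay at the low end. The saline animals measured 77.4, 106, 87.3 and 65.2 CPM and the OTV:Malat1 animals 42.5, 66.5 and 75.4, which overlap. The log2 change was −0.52 (SE 0.22, edgeR adjusted p = 0.998), with the OTV:Malat1 animal below the saline animal in 2 of 3 batches. Malat1 ASO animals measured 83.9, 53.8, 56.6 and 47.6 CPM, and the log2 change from saline was −0.48 (SE 0.20, edgeR adjusted p = 0.9999). Both had an unadjusted p under 0.05.

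Cluster 17 oligodendrocytes had all 10 genes tested, with log2 changes of −1.17 to 0.25. Pdgfra measured 104, 118, 35.0 and 111 CPM in saline animals and 63.9, 29.0 and 28.0 in OTV:Malat1 animals. One saline animal lay among the OTV:Malat1 values, and the log2 change was −1.17 (SE 0.47, edgeR adjusted p = 0.9998). The anti-TfR:Malat1 animals, at 90.3, 36.0, 36.3, 54.8, 54.2 and 17.3 CPM, overlapped saline and gave −0.91 (SE 0.38, edgeR adjusted p = 0.9998). Both had an unadjusted p under 0.05. Beside this, 256 of the 261 Pdgfra UMIs of the class were in doublet-called nuclei, which made up 43.5% ± 1.34 of it in saline, 43.2% ± 11.1 in OTV:Malat1 and 42.2% ± 11.8 in anti-TfR:Malat1 animals. Inside the doublet-called nuclei Pdgfra was 169 ± 75.6 CPM in saline, 69.7 ± 38.9 in OTV:Malat1 and 94.3 ± 58.2 in anti-TfR:Malat1 animals. These ranges overlapped and were not tested. Without doublet-called nuclei Pdgfra had too few UMIs to be tested, and with all labels of cluster 17 the OTV:Malat1 change was −0.11. Batch means of Pdgfra in the class were 92.4, 86.3, 43.5 and 45.4 CPM in batches 1 to 4. The OTV:Malat1 animal was below the saline animal in 3 of the 3 batches that held both groups.

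Mature classes gave 4 further differences under an unadjusted p of 0.05, none of which held after adjustment. Cspg4 in cluster 0 was 33.3, 38.5 and 23.5 CPM with OTV:Malat1 and 25.2, 20.9, 15.6 and 15.0 with saline. This was 0.53 higher on the log2 scale (SE 0.20, adjusted p by edgeR = 0.994) with overlapping groups. The OTV:Malat1 animal was above the saline animal in 3 of 3 batches. Cspg4 in cluster 2, with 27.8, 36.5 and 33.4 against 25.4, 23.6, 23.0 and 14.1 CPM, did not overlap, was higher in 3 of 3 batches and gave 0.45 (SE 0.21, edgeR adjusted p = 0.9995). In nuclei of 1000 or more UMIs that change was −0.19. Sox10 in cluster 15 was 378, 354 and 397 CPM with OTV:Malat1 and 188 to 352 with anti-TfR:Malat1, without overlap, 0.35 higher on the log2 scale (SE 0.15, adjusted p by edgeR = 0.859). In both this Sox10 difference and the next one, the OTV:Malat1 animal was above the mean of the other group in 3 of 3 batches. Itpr2 in cluster 15 was 47.1, 12.1 and 35.1 against 11.3, 17.2, 10.6 and 18.4 CPM in saline, 0.81 higher on the log2 scale (SE 0.39, adjusted p by edgeR = 1.00). Doublet calls in this class made up 37.7% of nuclei with OTV:Malat1 and 23.6% in saline, and without doublet-called nuclei the Itpr2 change was 0.13. The CPM totals include Malat1, and a lower Malat1 raises the CPM of other genes. Its difference within batches was −98653 to −69451 CPM in cluster 2 for OTV:Malat1 against saline. In cluster 15 it was −80283 to −49483 CPM for OTV:Malat1 against anti-TfR:Malat1. Its part in the separations of Cspg4 and Sox10 was not tested, and the share of all genes without overlap is not given here.

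**Figure D4:**
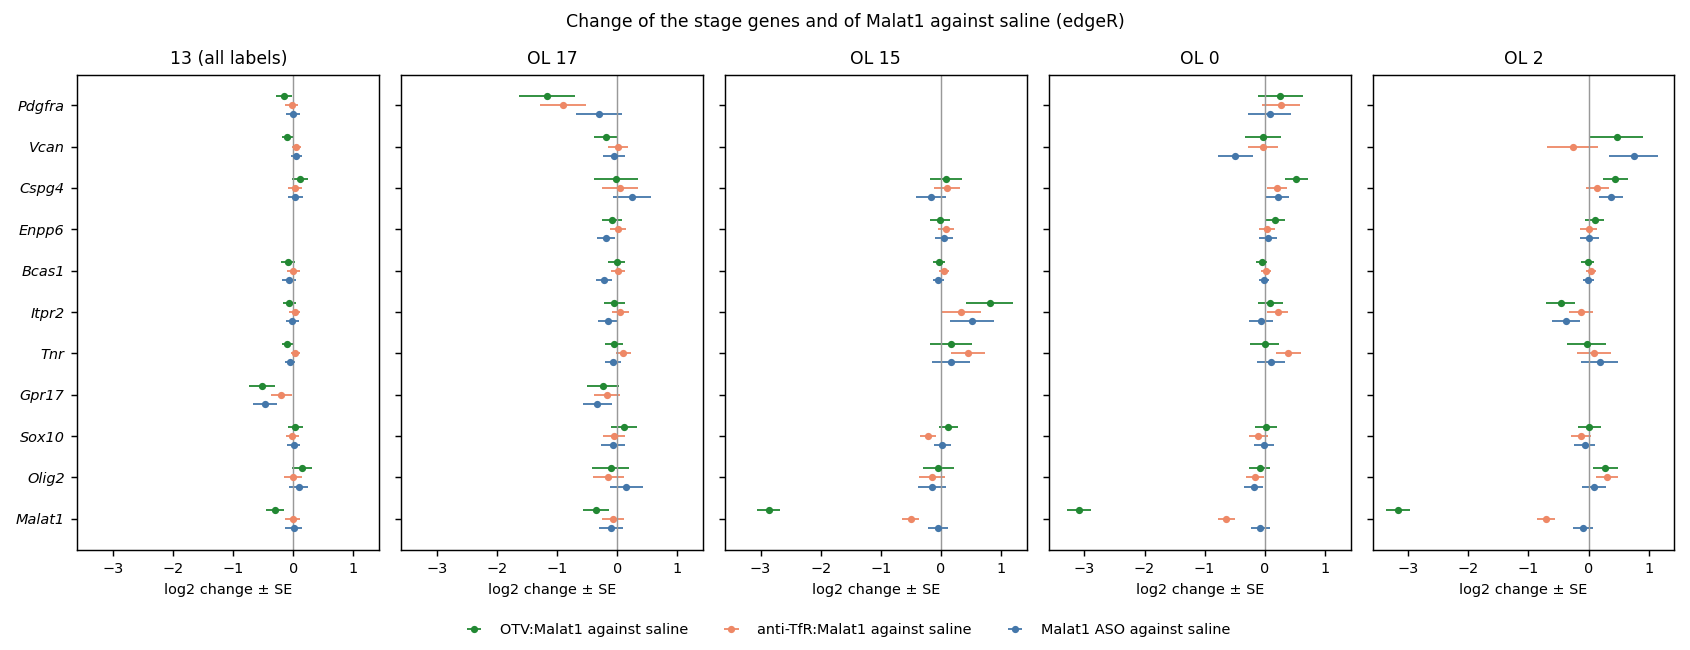
Points give the log2 change of each stage gene and of Malat1 against saline, with lines of 1 standard error from edgeR, in cluster 13 and the 4 oligodendrocyte classes (OL); genes too low to test have no point. Stage genes scatter around 0 in all panels, while Malat1 lies near −3 with OTV:Malat1 in OL 15, OL 0 and OL 2 and at −0.30 and −0.36 in cluster 13 and OL 17.

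The same classes separated by stage in Malat1, the targeted RNA. OTV:Malat1 lowered it in mature oligodendrocytes of cluster 0 from 101261 ± 18150 CPM (saline, n = 4) to 13461 ± 1912 (n = 3), a log2 change of −3.09 (edgeR adjusted p = 7.80e-09), and in clusters 15 and 2 by −2.86 and −3.17 (adjusted p = 9.41e-11 and 1.11e-09). In cluster 17 it was 86031 ± 27425 in saline and 68630 ± 11997 with OTV:Malat1, with overlapping animals and a log2 change of −0.36 (SE 0.22, adjusted p = 0.9998). Among singlet-called nuclei alone that change was −0.27 (SE 0.27). In cluster 13 it was 53237 ± 14201 and 44494 ± 5034, a log2 change of −0.30 (SE 0.16, adjusted p = 0.998). The difference itself was tested as an interaction with the animal as a block. For OTV:Malat1 against saline, the Malat1 change in cluster 13 was 2.52 log2 units (SE 0.10, adjusted p = 6.4e-25) above that of the oligodendrocytes outside cluster 13. For cluster 17 it was 2.74 (SE 0.19, adjusted p = 1.55e-20) above that of clusters 0, 2 and 15. For anti-TfR:Malat1 the same differences were 0.63 (SE 0.08, adjusted p = 1.14e-05) and 0.62 (SE 0.15, adjusted p = 0.408).

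In these interaction fits all 10 stage genes were tested and 0 called. The share called was 0.00704% of 14213 genes for cluster 13 (1 gene, Malat1, in every contrast but that of Malat1 ASO) and 0% for Malat1 ASO. It was 0.00721% of 13879 genes for cluster 17 (Malat1, in both OTV:Malat1 contrasts) and 0% for the other 2. At an unadjusted p under 0.05 were 568 to 691 genes in the first and 530 to 567 in the second, and DESeq2 called 0 members. Pdgfra in cluster 17 against the mature classes had the largest member value, −1.64 (SE 0.54, edgeR adjusted p = 1), with the doublet-called nuclei given above.

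The numbers of nuclei at each stage were compared as shares of the lineage, that is, of cluster 13 plus all nuclei labelled Oligodendrocytes. Cluster 13 made up 8.87% ± 1.20 of them in saline and 9.99% ± 1.97 in Malat1 ASO animals. The share was 9.47% ± 1.18 with anti-TfR:Malat1 and 10.1% ± 3.12 with OTV:Malat1. The OTV:Malat1 difference from saline was 1.22 percentage points (exact two-sided permutation p = 0.457, where the smallest possible is 0.0571). It was 3.02 points without OTV:Malat1 animal 2, 0.435 without animal 1 and 0.218 without animal 3 of that group, and 0.746 without saline animal 2. In nuclei of 1000 or more UMIs it was 4.83 points (exact p = 0.286). Over all animals this cut left out 17818 of 29228 cluster 2 oligodendrocytes and 239 of 7782 cluster 13 nuclei. Whether it fell unequally on the treatment groups was not tested. Cluster 17 oligodendrocytes made up 1.35% ± 0.27, 1.38%, 1.34% and 1.42% in the same order. Nuclei labelled Oligodendrocytes made up 6.11% ± 2.06 of cluster 13 in saline and 4.76% ± 0.81 in OTV:Malat1 animals. Over 12 such tests every adjusted p was 0.980 or more, and the groups overlapped.

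**Figure D5:**
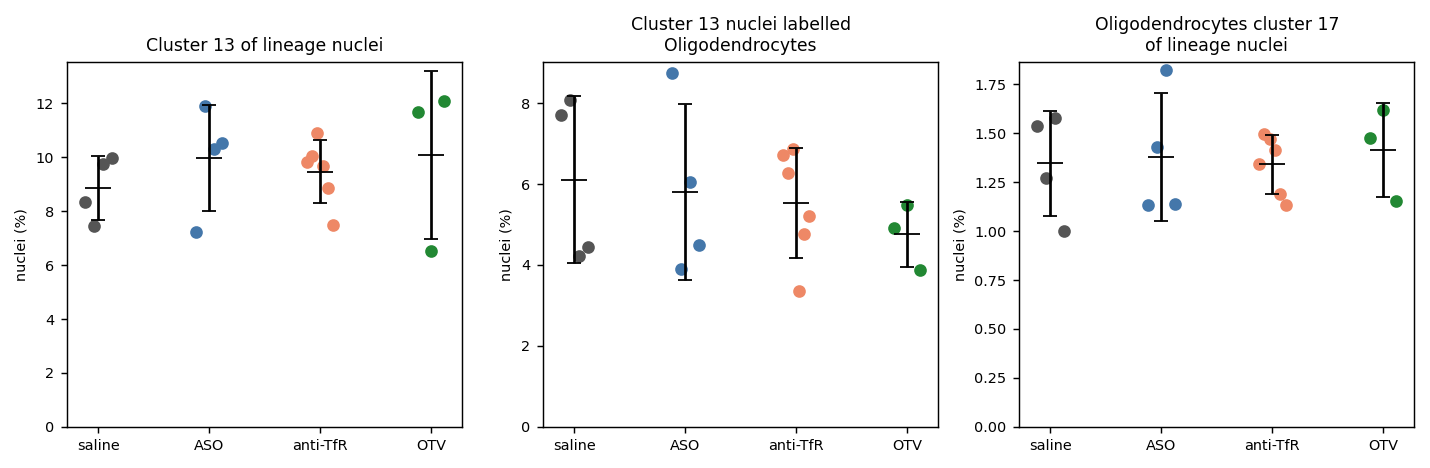
Each point is 1 animal and the horizontal marks are the group mean with SD bars, for 3 shares of nuclei (%), by treatment group. The 4 groups overlap in each panel, and the OTV:Malat1 animals spread most in the share of cluster 13.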

How the data were processed

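Single-nucleus RNA was measured with 10x Genomics libraries in 17 mice, each counted as 1 replicate. The deposited matrix holds raw UMI counts per gene and nucleus. Cell Ranger 6.0.1, Seurat 4 and build mm10 are named, with no role or order, per the submitters' processing notes. Clusters (resolution 0.4), cell type labels, batches and doublet calls are the authors' deposited columns, and the label score beside them is a fraction; how they were made is not given in the sources used here. Every deposited nucleus had at least 500 UMIs. Tests used counts summed per animal for classes with 20 or more nuclei in each animal; levels were given with no such minimum. The sums held 767762 to 1357005 UMIs per animal in cluster 13 and 126205 to 395660 in cluster 17 oligodendrocytes, whose levels are therefore less precise. Intervals of treatment effects are standard errors over animals.

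Treatment was tested with edgeR 4.0.16 (quasi-likelihood, TMM, filterByExpr, all 4 groups in 1 fit, threshold 0.05), and with DESeq2 1.42.0 as an alternative. The edgeR steps were tested on simulated data. Shares of nuclei were compared by exact permutation of animals (scipy 1.17.1). Thinning drew UMIs without replacement to 500 or 1000 per nucleus. Doublet-called nuclei stayed in unless stated. All 10 stage genes, Malat1 and, for each stage gene, the 2 genes of highest r across clusters (at least 10 CPM in 1 cluster) are named. The stage genes and marker lists were chosen with earlier results of these data known. The tests of cluster 17 against mature classes and of its share, the use of all labels of a cluster and the levels by batch were added after seeing the data.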

Additional observations from a re-analysis of the deposited data

Results flagged for a closer look

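In 8 of 159 groups of 4 to 6 animals (5.03%), 1 animal stood apart from the rest of its group by Dixon's criterion, which flags about 1 in 20 groups by chance. In cluster 13, Tnr was 3894 CPM in Malat1 ASO animal 3 against 4151 to 4204 in the others of its group. In cluster 17 oligodendrocytes, Vcan was 872 CPM in saline animal 4 against 478 to 527, and Enpp6 was 696 CPM in anti-TfR:Malat1 animal 4 against 837 to 912. In cluster 15, Olig2 was 33.4 CPM in Malat1 ASO animal 3 against 26.0 to 27.2. In cluster 0, Vcan was 8.64 CPM in saline animal 4 against 4.31 to 4.96, and Sox10 was 235 CPM in Malat1 ASO animal 4 against 330 to 340. In cluster 2, Enpp6 was 117 CPM in Malat1 ASO animal 4 against 71.8 to 76.5, and Bcas1 was 736 CPM in Malat1 ASO animal 3 against 786 to 791.

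The Malat1 change differed between stages by the edgeR interaction test. Cluster 13 minus the oligodendrocytes outside it gave 2.52 log2 units for OTV:Malat1 against saline, 0.63 for anti-TfR:Malat1 against saline (adjusted p = 1.14e-05) and 1.90 for OTV:Malat1 against anti-TfR:Malat1 (adjusted p = 4.11e-21). Cluster 17 oligodendrocytes minus clusters 0, 2 and 15 gave 2.74 for OTV:Malat1 against saline and 2.12 for OTV:Malat1 against anti-TfR:Malat1 (adjusted p = 2.85e-16).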

How the results depend on the processing

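No stage gene was called in any of 720 counts under the alternatives, and the smallest adjusted p of one was 0.439. Of 6415 log2 changes of single stage genes under the alternatives, 462 (7.20%) had the other sign, as did 24 of 150 share differences. Without a filter on low counts more genes were called, none a stage gene: up to 4 in cluster 13 and 3 in cluster 17 against 0, 15 against 1 in cluster 15, and 9 and 6 in the interactions of clusters 13 and 17 against 1 and 0. The cluster 17 Malat1 interaction for anti-TfR:Malat1 then passed (adjusted p = 3.69e-10). With the replicate block, where numbers in the titles are shared, the cluster 13 share differed by 1.59 points between OTV:Malat1 and saline (exact p = 0.5) and by −0.171 between OTV:Malat1 and anti-TfR:Malat1. Same-numbered animals did not deviate together in cluster 13 (21 pairs, mean r = 0.03, from −0.33 to 0.28; mean r = 0.10 in oligodendrocytes outside it), so the numbers were not taken as a pairing. Animals of the same batch did deviate together on average (27 pairs, mean r = 0.16 and 0.31). Too sparse to test were Enpp6 in cluster 13, Gpr17 in all mature classes, Pdgfra in clusters 15 and 2, Vcan in cluster 15 and Pdgfra in singlet-called cluster 17 nuclei.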

Other observations

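Cluster 19 held 103 nuclei, 1 to 11 per animal, 90.3% of them doublet calls, and carried Pdgfra at 365 ± 141 CPM and Vcan at 887 CPM beside 1335 CPM of summed microglia markers. The 1785 nuclei of cluster 17 labelled Neurons, 97.0% of them doublet calls, held Pdgfra at 190 CPM and Tnr at 1807 CPM beside 8559 CPM of summed neuron markers. Pdgfra in cluster 13 had means of 719 ± 24.1, 646 ± 46.3, 527 ± 54.7 and 593 ± 25.8 CPM in batches 1 to 4. Cspg4 there had 371 ± 27.1, 350 ± 35.9, 294 ± 34.8 and 319 ± 31.1 CPM. Batches were not tested against each other, and treatment groups were not spread evenly over them. Cluster 17 oligodendrocytes without a doublet call held 15355 CPM of the summed committed genes and 10925 CPM of the summed myelin-stage genes.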
